A study of Homo sapiens with 13 samples.

Results

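RNA of 6 inhibitors of cyclin-dependent kinases (*CDKN1A*, *CDKN1B*, *CDKN1C*, *CDKN2A*, *CDKN2C* and *CDKN2D*) and of 4 G1 cyclins (*CCND1*, *CCND2*, *CCNE1* and *CCNE2*) was followed in 2 small cell lung cancer (SCLC) lines before and after inhibition of SMARCA2 and SMARCA4. The genes were taken by symbol, and all 10 were found among the 56831 genes of each table. H82 (SCLC-N) and H146 (SCLC-A) are established lines, given as wild type (WT), and both were grown in RPMI1640 with serum. There were 3 untreated and 3 treated libraries of H82, and 3 untreated and 4 treated libraries of H146. The treated cells received FHD-286, an inhibitor of both ATPase subunits of the SWI/SNF chromatin remodeling complex, at 100 nM for 14 days, and the untreated cells are labelled as having received none. Each group is 1 cell line, and nothing in the labels says that its libraries came from separate cultures, so *p* values measure only the spread between these libraries, which may be technical.

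Progression from G1 into S phase is driven by cyclin D with CDK4 or CDK6 and then by cyclin E with CDK2, which phosphorylate the retinoblastoma protein RB and release E2F transcription factors. The INK4 proteins (p16INK4a from *CDKN2A*, p18INK4c from *CDKN2C* and p19INK4d from *CDKN2D*) bind CDK4 and CDK6, whereas the CIP/KIP proteins (p21 from *CDKN1A*, p27 from *CDKN1B* and p57 from *CDKN1C*) act mainly on cyclin E with CDK2. SCLC typically loses *RB1* function, and tumors without RB often carry much p16INK4a. On hg38, in the GENCODE release 44 annotation, *CDKN1A* lies at chr6:36676460-36687337 and *CDKN1B* at chr12:12685498-12722369, both on the plus strand, and *CDKN1C* at chr11:2883213-2885775 on the minus strand. *CDKN2A* lies at chr9:21967752-21995301 (minus), *CDKN2C* at chr1:50960745-50974634 (plus) and *CDKN2D* at chr19:10566460-10569059 (minus). Of the cyclin genes, *CCND1* (chr11:69641156-69654474), *CCND2* (chr12:4269771-4305353) and *CCNE1* (chr19:29811991-29824312) lie on the plus strand, and *CCNE2* on the minus strand. Reads were counted per gene, so isoforms are not separated. Protein and kinase activity were not measured in the tables used here, so all values are of RNA.

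*CDKN2A* has 2 promoters on chromosome 9 whose starts lie 20467 bases apart. The distal one makes the RNA of p14ARF and the proximal one that of p16INK4a, and 1 row of the table holds both, so the 2 products cannot be told apart. The 30 bases before each start (RefSeq, GRCh38.p14, minus strand, 5′ to 3′) are given to show where the 2 products begin.
CDKN2A, p14ARF start, chr9:21995325-21995354: cgggggaagaggaaagaggaagaagcgctc
CDKN2A, p16INK4a start, chr9:21974858-21974887: ccgcgtgcgctcggcggctgcggagagggg

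Promoters of 6 of the 10 genes were in the RefSeq table (*CDKN1A*, *CDKN1B*, *CDKN2A*, *CDKN2C*, *CDKN2D* and *CCNE1*), each reaching from 250 bases before a start to 50 after it. They were searched on both strands for the GC box GGGCGG, the CCAAT box, the E-boxes CACGTG and CAGCTG and the E2F sites TTTCCCGC, TTTGGCGC and TTTCGCGC. The GC box was present in at least 1 promoter of all 6 genes and in 45.0% of the 35116 promoters of the table. Such percentages count single promoters, while *CDKN2A* and *CDKN2C* have more than 1. The box was absent at the p14ARF start of *CDKN2A* and at the *CDKN2C* start at chr1:50960745. A CCAAT box, found in 34.6% of all promoters, was present in *CDKN1B*, in *CDKN2D* and, for *CDKN2C*, only at the start at chr1:50970245. The E-box CACGTG, in 7.26% of all promoters, was found at 2 of the 3 *CDKN2C* starts, and CAGCTG, in 17.9%, in *CDKN1A* and at the remaining *CDKN2C* start. None of the 3 E2F sequences was in these windows, against 1.63%, 0.652% and 0.515% of all promoters. The windows below hold matches upstream of genes that were higher in treated H82, with 1 match each in capitals. In *CDKN1A* the match overlaps a second GC box that begins 5 bases later.
CDKN1A, GC box, plus strand, chr6:36678657-36678686: tgaggcgggcccGGGCGGggcggttgtata
CDKN1B, CCAAT box, plus strand, chr12:12717306-12717335: ccgccgccgcaaCCAATggatctcctcctc
CDKN2C, E-box, plus strand, chr1:50970164-50970193: ttgctgaataatCACGTGtgaatcgagggg

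Levels are in TPM, reads per gene length rescaled so that every library has an equal total, and the depth of the libraries is unknown. The log2 fold changes of all genes tested had their median at -0.56 in H82 and 0.25 in H146. Fold changes, calls and *p* values are set against 0 and not against these medians. Scaling by the median of ratios moved the medians to -0.14 and -0.02. RNA of mitochondrial genes made up 22.1% to 24.1% of untreated H82 libraries, 12.3% to 14.9% of treated H82 libraries and 3.82% to 11.4% of H146 libraries. Sums of some marker lists differed between the groups. The 7 neuroendocrine SCLC markers summed to 3374 to 3857 TPM in untreated and 2549 to 2722 TPM in treated H146. There 3 of 6 tested were lower, against 15.5% of all genes. In H82 they summed to 1084 to 1211 TPM untreated and 1245 to 1563 TPM treated. Of the 7, 3 were lower (*SYP*, *CHGA* and *NEUROD1*) and 2 higher, against 45.5% and 13.1% of all genes. *NEUROD1* had 224 to 234 TPM untreated and 48.0 to 112 TPM treated. The sum rose with *UCHL1*, at 384 to 430 TPM untreated and 808 to 1053.5 TPM treated, and with *INSM1* in the treated replicate 2 (296 TPM). The 6 airway epithelial markers summed in H146 to 710 to 742 TPM untreated, nearly all from *EPCAM*, and to 272 to 393 TPM treated, and all 3 tested were lower. In H82 they summed to 1.61 to 2.13 TPM untreated and 1.37 to 33.2 TPM treated. The 5 leukocyte markers summed to 6.82 to 9.96 TPM in untreated and 9.72 to 20.2 TPM in treated H146, and to 2.34 to 7.90 TPM in H82. The 4 endothelial markers stayed at or below 2.65 TPM in every library. The part of these markers in the changes of the inhibitors and cyclins was not tested. In bulk RNA, fewer cells of a type and less RNA per cell cannot be told apart.

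The treated H82 replicate 2 stood apart from the other two treated H82 libraries. The genes with at least 20 TPM in every untreated H146 library and under 0.1 TPM in every untreated H82 library, 114 in number, summed to 1.13 to 1.34 TPM in untreated H82. In treated H82 the sum was 82.4, 428 and 36.7 TPM in replicates 1, 2 and 3, which is 0.744%, 3.86% and 0.332% of the mean in untreated H146. In replicate 2, 50 of the 114 genes reached 1 TPM. The reverse set of 79 H82 genes summed to 14.6 to 32.5 TPM in treated H146 and 1.08 to 1.504 TPM in untreated H146, which is at most 0.601% of untreated H82. The treated H82 replicate 1 differed in another way, since 15 mitotic genes summed to 1168 TPM there against 3014 and 3113 TPM in replicates 2 and 3 and 2532 to 2620 TPM in untreated H82. Whether the RNA of H146 genes in replicate 2 was made by these cells or carried over from H146 was not tested. Applied to the untreated H146 levels, its 3.86% amounts to 39.7% of the *CDKN1C* TPM in that library, 17.7% of *CDKN1B*, 15.7% of *CDKN2D*, 8.85% of *CDKN2C* and 6.03% of *CDKN2A*. Values without these libraries are given beside the results they touch.

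**Figure D1:**
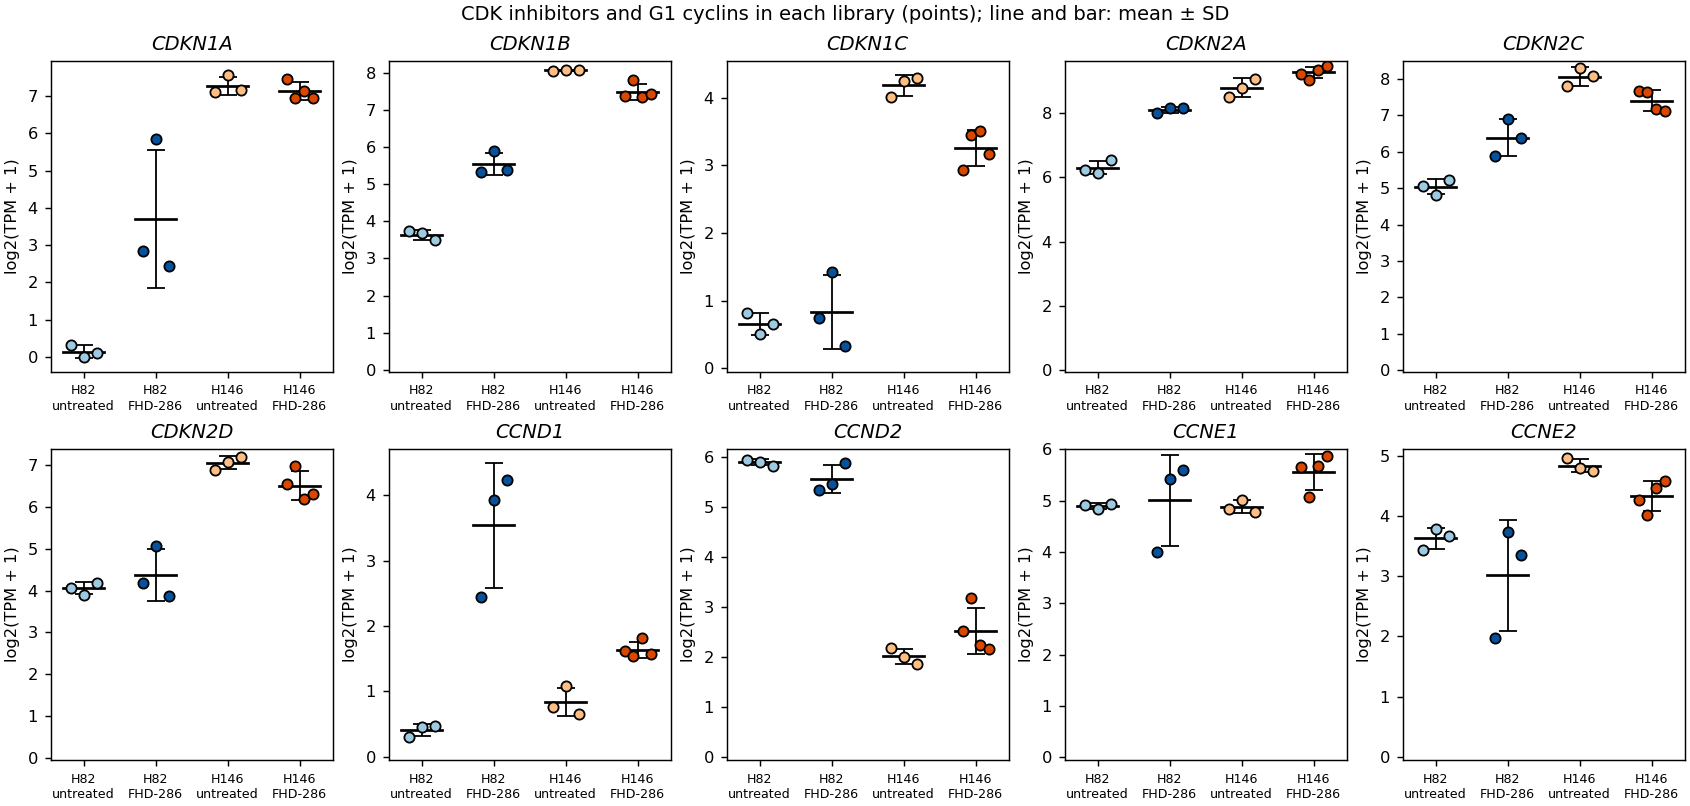
Level of each of the 10 genes as log2(TPM + 1) in every library, by line and treatment, with the group mean and SD as a line and bar. All 6 inhibitors lie lower in untreated H82 than in untreated H146, and the treated H82 replicate with the highest *CDKN1A* (56.3 TPM) stands apart from the other two.

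The lines differed before treatment. Untreated H82 was lower than untreated H146 for all 6 inhibitors and for *CCNE2*, and higher for *CCND2*, where 30.5% of all 23676 genes tested were lower and 41.9% higher. *CDKN1C* was below the filter in H82 and entered this fit only through H146. Its lower call is therefore no test, and the count is given as a description. The difference was widest for *CDKN1A*, with 0.106 ± 0.130 TPM (SD, n = 3) in H82 against 157 ± 27.9 TPM in H146, a log2 difference of -7.15 (SE 0.63, adjusted *p* = 5.39e-07). *CDKN1B* differed by -4.43, *CDKN1C* by -3.52, *CDKN2C* by -3.03, *CDKN2D* by -3.003 and *CDKN2A* by -2.49 on the same scale, log2(TPM + 1). *CCND2* had the most RNA of the D cyclins in untreated H82, at 58.6 ± 2.45 TPM against 3.07 ± 0.447 TPM in H146, a log2 difference of 3.88 (SE 0.24, adjusted *p* = 2.16e-08). *CCNE2* was lower in H82 by a log2 difference of -1.21 (adjusted *p* = 0.00670). *CCND1* (-0.42, adjusted *p* = 0.298) and *CCNE1* (0.02, adjusted *p* = 0.958) did not pass the threshold. This fit shares its spread with the treated libraries, and without the treated H82 replicate 1 *CCND1* passed (adjusted *p* = 0.0361).

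In H82, FHD-286 was accompanied by higher RNA of 4 of the 5 inhibitors tested and of *CCND1*, and no gene of the family passed the test as lower. This made 5 of 9 genes higher, where 13.1% of all genes tested were higher and 45.5% lower. *CDKN1A* and *CCND1* passed the filter on low values (at least 1 TPM in 3 libraries) only through the treated libraries and so had to differ, and the count is given as a description. In H146, 4 of 6 inhibitors and *CCNE2* were lower, and *CDKN2A*, *CCND1* and *CCNE1* were higher. There, too, *CCND1* met the filter through its treated libraries. That is 5 of 10 genes lower, where 15.5% of all genes tested were lower, and 3 of 10 higher, where 32.5% were higher. In H82 the treated libraries of 5 genes lay above all untreated ones (16.4% of all genes tested) and of 0 below (51.4%). In H146 they lay above for 2 genes (35.7% of all genes) and below for 4 (17.3%). The members had a median of 1.35 in H82 and -0.33 in H146 on the log2 scale.

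*CDKN1A* encodes p21, a brake on CDK2. In untreated H82 it had 0.251, 0 and 0.0671 TPM, and in treated H82 6.23, 56.3 and 4.39 TPM. All treated libraries were above all untreated ones, and replicate 2 was far above the other two. The log2 fold change was 3.57 (SE 0.83, adjusted *p* = 0.00903). Since the untreated values are near 0, the size depends on the 1 TPM added before taking logs, and with 0.1 TPM added it was 6.02. Without replicate 2, with the same genes tested, it was 2.50 (adjusted *p* = 0.00121). *CDKN1A* met the filter in H82 only through its treated libraries, so these adjusted *p* are a description and no test of the change. The percentage of H146 genes in replicate 2, applied to the untreated H146 level of *CDKN1A*, amounts to 6.05 TPM, or 10.8% of the value measured there, and in replicates 1 and 3 to 18.7% and 11.8%. In H146 *CDKN1A* had 137, 189 and 144 TPM untreated and 177, 123, 141 and 123 TPM treated, and the groups overlapped. Its log2 fold change there was -0.15 (SE 0.17, adjusted *p* = 0.484).

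*CDKN1B* encodes p27, which holds cyclin E with CDK2 inactive in resting cells. Untreated H82 had 12.3, 11.8 and 10.2 TPM and treated H82 39.4, 58.0 and 40.8 TPM, with no overlap. The log2 fold change was 1.90 (SE 0.19, adjusted *p* = 0.000351), and 1.73 without replicate 2. In H146 the level was 264, 270 and 266 TPM untreated and 166, 223, 161 and 171 TPM treated. All 4 treated libraries were below the untreated ones, with replicate 2 closest to them, and the log2 fold change was -0.58 (SE 0.14, adjusted *p* = 0.00873). Treated H82 remained below treated H146, at 46.1 ± 10.3 TPM (SD, n = 3) against 180 ± 29.2 TPM (n = 4).

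*CDKN1C* encodes p57, an imprinted inhibitor linked to differentiation. In H82 it had 0.774, 0.419 and 0.578 TPM untreated and 0.675, 1.68 and 0.257 TPM treated, which was too low for the fit across genes. The groups overlapped, and the difference in mean log2(TPM + 1) was 0.17 (exact permutation test, two-sided, *p* = 0.8, where 0.1 is the smallest value possible). Without the treated replicate 2 the difference was -0.13. In H146 it had 15.1, 18.04 and 18.6 TPM untreated and 6.65, 9.93, 10.4 and 7.96 TPM treated. All treated libraries were lower, with a log2 fold change of -0.92 (SE 0.18, adjusted *p* = 0.00385). This was the lowest fold change among the 10 genes in H146.

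*CDKN2A* had the highest TPM among the 6 inhibitors in every library. Untreated H82 had 75.0, 69.6 and 91.7 TPM, and treated H82 255, 288 and 285.5 TPM. The groups did not overlap and the treated libraries lay close together, with a log2 fold change of 1.80 (SE 0.15, adjusted *p* = 0.000222). In H146 it had 363, 444 and 540 TPM untreated and 601, 523, 654 and 701 TPM treated. These groups overlapped, since the treated replicate 2 was below the untreated replicate 3. The log2 fold change of 0.47 (SE 0.17, adjusted *p* = 0.0427) passed the threshold narrowly, and with the median of ratios it was 0.15 (adjusted *p* = 0.500). It also missed the threshold without the untreated replicates 1 or 2 or without the treated replicates 1, 3 or 4. *CDKN2A* exons overlap those of the antisense gene *CDKN2B-AS1*, and whether the counting used strand is not given in the sources used here.

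*CDKN2C* encodes p18INK4c. H82 had 32.5, 27.1 and 36.7 TPM untreated and 58.3, 118 and 82.6 TPM treated, with no overlap and a wide spread among the treated libraries. The log2 fold change was 1.35 (SE 0.26, adjusted *p* = 0.00432), and 1.10 without the treated replicate 2. H146 had 222, 315 and 272 TPM untreated and 203, 201, 143 and 139 TPM treated. Every treated library was lower, with a log2 fold change of -0.66 (SE 0.19, adjusted *p* = 0.0199), a call that was lost without the untreated replicate 2 (adjusted *p* = 0.0827) or 3 (adjusted *p* = 0.0690).

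*CDKN2D* encodes p19INK4d. In H82 it had 15.7, 14.0 and 17.3 TPM untreated and 17.2, 32.6 and 13.7 TPM treated, with overlapping groups and replicate 2 alone above the untreated range. The log2 fold change was 0.32 (SE 0.31, adjusted *p* = 0.398), and -0.024 without replicate 2. Under quantile normalization it was 0.79 (adjusted *p* = 0.0446). In H146 it had 117, 135 and 145.6 TPM untreated and 92.7, 125, 71.9 and 78.7 TPM treated. The treated replicate 2 lay within the untreated range and the other three below it. The log2 fold change of -0.55 (SE 0.19, adjusted *p* = 0.0430) missed the threshold without any 1 of the untreated libraries or of the treated replicates 1, 3 or 4, with adjusted *p* from 0.0648 to 0.143, and under quantile normalization (adjusted *p* = 0.0531).

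**Figure D2:**
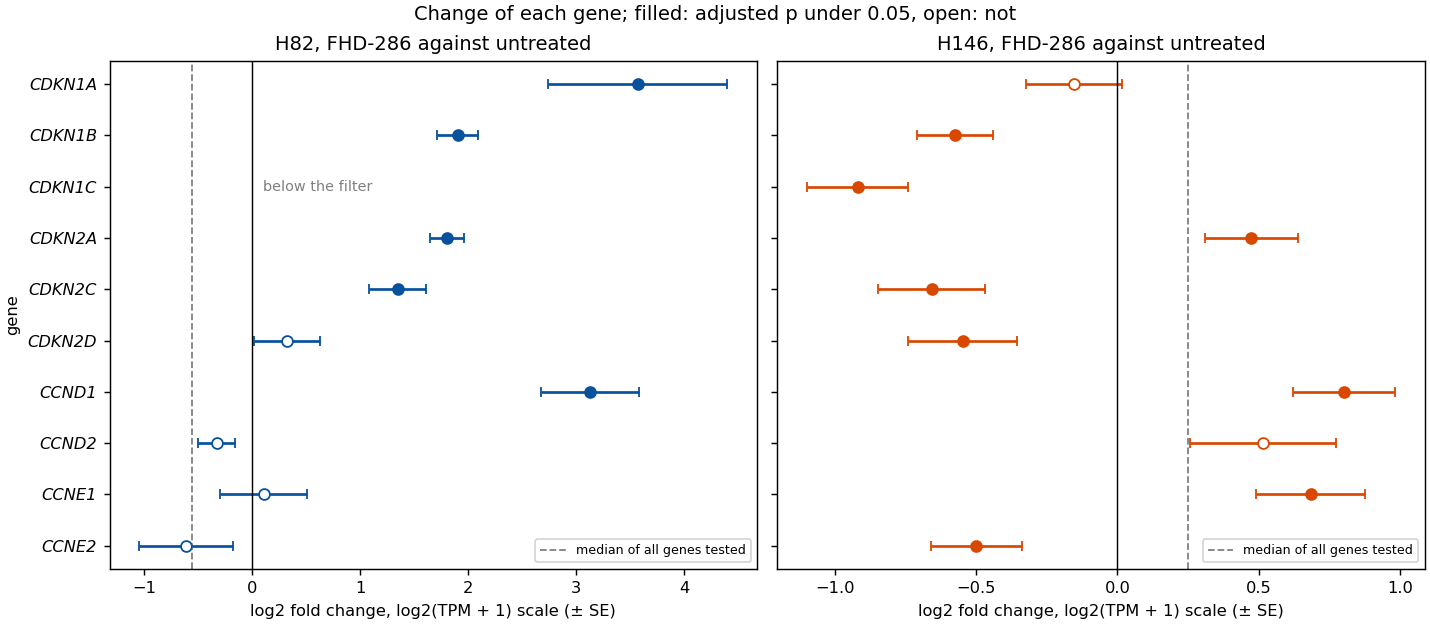
Log2 fold change on the log2(TPM + 1) scale with its SE for each gene in H82 (left) and H146 (right), filled where the adjusted p was under 0.05, with a dashed line at the median of all genes tested. *CDKN1B* and *CDKN2C* lie on opposite sides of 0 in the lines, at 1.90 and 1.35 in H82 and -0.58 and -0.66 in H146. *CDKN1A* in H82 and *CCND1* in both lines met the filter through treated libraries, so their filled points are a description and no test.

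*CCND1* encodes cyclin D1, which is low in most SCLC with RB loss. H82 had 0.238, 0.376 and 0.381 TPM untreated and 4.45, 14.3 and 17.8 TPM treated. All treated libraries were higher, replicate 1 least so, and the log2 fold change was 3.13 (SE 0.45, adjusted *p* = 0.00128), or 4.63 with 0.1 TPM added. In H146 *CCND1* had 0.699, 1.11 and 0.578 TPM untreated and 2.07, 1.92, 2.51 and 1.97 TPM treated. The treated libraries were again all higher but stayed low, with a log2 fold change of 0.80 (SE 0.18, adjusted *p* = 0.00737), or 1.34 with 0.1 TPM added. In both lines *CCND1* met the filter through its treated libraries, so these adjusted *p* are a description and no test of the change. The sum of the 6 fibroblast and stroma markers was higher with treatment in both lines. It was 1.70 to 2.50 TPM untreated and 7.98 to 35.3 TPM treated in H82, and 6.78 to 8.78 TPM and 17.1 to 32.7 TPM in H146. In H82, 0 to 1 of them reached 1 TPM in untreated libraries and 3 to 6 in treated ones. In H146, 2 did so in untreated libraries and 3 to 4 in treated ones. Single markers did not all follow the sum. *COL1A1* overlapped in H146, at 3.97 to 5.19 TPM untreated and 3.41 to 6.07 TPM treated. In the treated H82 replicate 2 it had 0.141 TPM, below its untreated values of 0.234 to 0.343 TPM. Of these markers, *COL3A1* was listed at 0 in all 3 untreated H82 libraries, and none of the 6 was at 0 in a treated library. Their part in the result was not tested. *CCND1* exons share 497 bases with *LTO1* on the opposite strand.

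*CCND2* encodes cyclin D2. H82 had 60.9, 59.0 and 56.1 TPM untreated and 39.5, 43.3 and 58.2 TPM treated. Replicates 1 and 2 lay below the untreated range and replicate 3 within it, and the log2 fold change was -0.33 (SE 0.17, adjusted *p* = 0.138). Without replicate 3 it was -0.49 (adjusted *p* = 0.0355), and the median of ratios gave 0.15. In H146 it had 3.55, 3.003 and 2.66 TPM untreated and 4.77, 8.09, 3.78 and 3.48 TPM treated, with a log2 fold change of 0.51 (SE 0.26, adjusted *p* = 0.132) and overlapping groups. Part of its exons is shared with a gene on the same strand, so its reads may be split.

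*CCNE1* encodes cyclin E1, the E2F-driven partner of CDK2. H82 had 29.3, 27.7 and 29.8 TPM untreated and 14.9, 42.1 and 47.4 TPM treated. The treated replicate 1 was below and the other two above the untreated range, and the log2 fold change was 0.10 (SE 0.40, adjusted *p* = 0.839). Without replicate 1, the library with the low mitotic sum, it was 0.61 (adjusted *p* = 0.00200). H146 had 27.6, 31.5 and 26.5 TPM untreated and 49.3, 32.5, 50.01 and 57.4 TPM treated. The groups did not overlap, although the treated replicate 2 was close to the untreated range, and the log2 fold change was 0.68 (SE 0.19, adjusted *p* = 0.0183). With the median of ratios it was 0.37 (adjusted *p* = 0.104), and without the untreated replicate 1 or 3 the adjusted *p* was 0.0636 or 0.0716.

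*CCNE2* encodes cyclin E2. In H82 it had 9.86, 12.8 and 11.6 TPM untreated and 2.93, 12.2 and 9.17 TPM treated. Replicate 1 was again the lowest and the groups overlapped, with a log2 fold change of -0.61 (SE 0.44, adjusted *p* = 0.264), which was -0.09 without replicate 1. H146 had 30.1, 26.7 and 26.0 TPM untreated and 18.3, 15.2, 21.2 and 23.0 TPM treated. All treated libraries were lower, with a log2 fold change of -0.50 (SE 0.16, adjusted *p* = 0.0315), a call that was lost without any 1 of the untreated libraries or without the treated replicate 1, with adjusted *p* from 0.0644 to 0.121. The exons of *CCNE2* share 1629 bases with *INTS8* on the opposite strand.

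The change itself differed between the lines for 7 of the 10 genes in a test of the interaction of line and treatment over all 13 libraries. For 6 of them it was higher in H82 than in H146, where 13.7% of all genes tested were higher, and for *CCND2* it was lower, where 46.5% were lower. The 6 include *CCND1* and *CDKN1C*, which met the filter only through groups where they were higher, so the count is a description. The difference in log2 fold change was 3.72 (SE 0.87, adjusted *p* = 0.00272) for *CDKN1A*, 2.48 (SE 0.23, adjusted *p* = 3.65e-06) for *CDKN1B* and 2.01 (SE 0.34, adjusted *p* = 0.000297) for *CDKN2C*. *CDKN2A* differed by 1.33 (adjusted *p* = 0.000398), *CCND1* by 2.32 (adjusted *p* = 0.00130) and *CDKN1C* by 1.09 (adjusted *p* = 0.0188). *CCND1* met the filter in both lines through its treated libraries, so its adjusted *p* here is a description. *CDKN1C* entered this fit only through H146. Its untreated level in H82 was near 0 and left little room for a fall there, so its adjusted *p* is a description too. With 0.1 TPM added, *CDKN1C* missed the threshold (adjusted *p* = 0.120). *CCND2* differed by -0.85 (adjusted *p* = 0.0409), but by -0.11 with the median of ratios (adjusted *p* = 0.790), and it missed the threshold without any 1 of the untreated H82 libraries, the treated H82 replicates 1 or 2, the untreated H146 replicates 2 or 3 or the treated H146 replicate 1 (adjusted *p* from 0.0589 to 0.0890). The difference of 0.87 for *CDKN2D* (adjusted *p* = 0.0600), of -0.58 for *CCNE1* (adjusted *p* = 0.296) and of -0.11 for *CCNE2* (adjusted *p* = 0.847) did not pass, and *CDKN2D* passed with the median of ratios (1.66, adjusted *p* = 0.00407), without the treated H82 replicate 3 (adjusted *p* = 0.0170) and without the treated H146 replicate 2 (adjusted *p* = 0.0246). *CDKN1B* and *CDKN2C* were higher in treated H82 and lower in treated H146, each past the threshold. For these genes the gap between the lines was narrower with treatment than without.

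**Figure D3:**
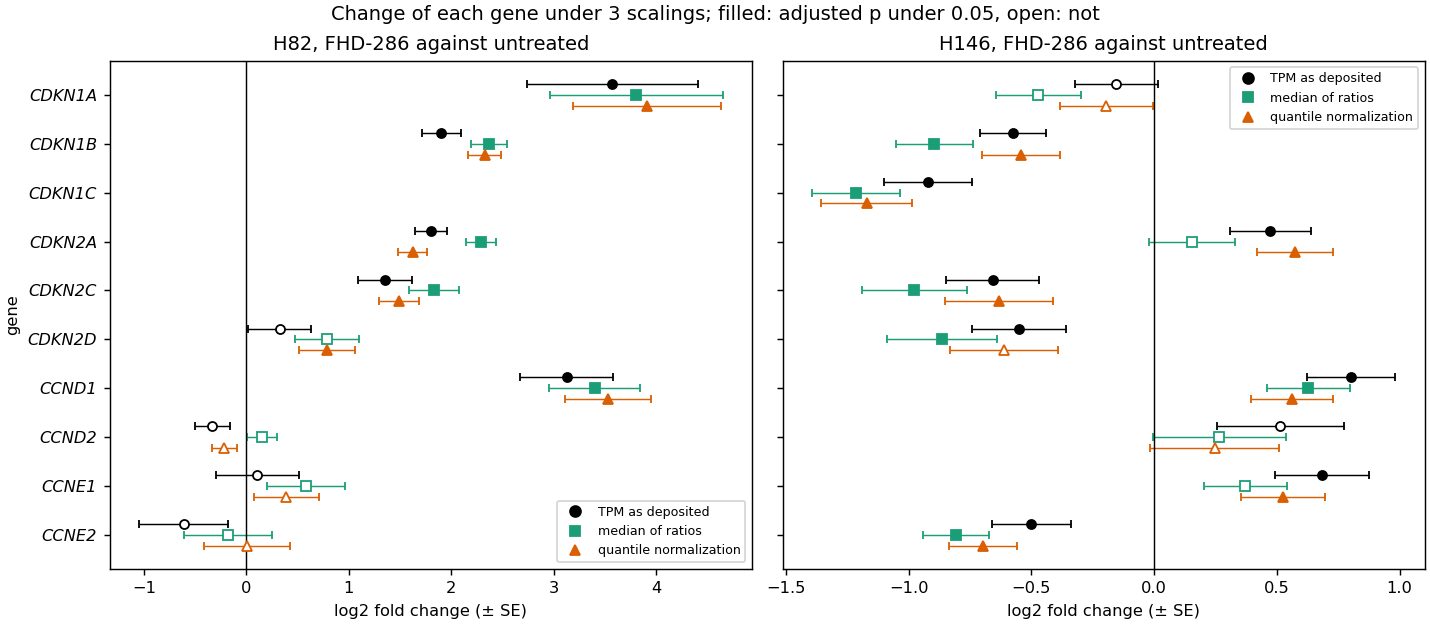
Log2 fold change with its SE for each gene on TPM as deposited, after the median of ratios and after quantile normalization, in H82 (left) and H146 (right), filled where the adjusted p was under 0.05. The 5 genes called higher in H82 kept that call under all 3 scalings, whereas *CDKN2A* and *CCNE1* in H146 lost it with the median of ratios. Of the 5, *CDKN1A* and *CCND1* met the filter only through treated libraries and had to differ.

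A share within a family does not change when a library is scaled by 1 factor. In untreated H82 *CCND1* made up 0.331%, 0.549% and 0.568% of the summed TPM of the 3 D cyclins, and in treated H82 8.32%, 16.8% and 18.2%. The groups did not overlap, and the mean share was 0.483% ± 0.132 (SD, n = 3) against 14.5% ± 5.37 (exact permutation test, two-sided, *p* = 0.1, the smallest value possible). The share of *CCND2* was 84.8% ± 1.33 in untreated and 61.5% ± 11.5 in treated H82, so it stayed the largest. In H146 the share of *CCND1* was 1.42% ± 0.407 untreated and 3.65% ± 0.468 treated (exact permutation test, *p* = 0.0286, the smallest possible with 3 against 4). There *CCND3*, the third D cyclin, made up 93.0% ± 0.977 untreated and 87.2% ± 6.02 treated.

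Within the E cyclins the share of *CCNE1* was higher in every treated library than in every untreated library of the same line. It was 74.8%, 68.4% and 71.9% in untreated H82 and 83.6%, 77.5% and 83.8% in treated H82. The treated replicate 1, whose 2 cyclins were both low, had a share like that of replicate 3. The means were 71.7% ± 3.24 and 81.6% ± 3.60 (exact permutation test, *p* = 0.1). In H146 it was 47.8%, 54.1% and 50.5% untreated and 72.9%, 68.1%, 70.2% and 71.4% treated, with means of 50.8% ± 3.13 and 70.7% ± 2.00 (exact permutation test, *p* = 0.0286). The 6 share tests gave the smallest *p* that each design allows, and adjusted over the 6 (Benjamini-Hochberg) these are 0.0571 in H146 and 0.1 in H82.

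The 6 inhibitors summed to 137, 123 and 157 TPM in H82 without and 376, 554 and 427 TPM with treatment. In H146 the sum was 1118, 1370 and 1386 TPM untreated and 1245, 1205, 1181 and 1220 TPM treated, where the groups overlapped. The INK4 genes made up 91.1% ± 1.70 of this sum in untreated and 85.4% ± 5.53 in treated H82 (exact permutation test, *p* = 0.1), with the lowest share of 79.1% in replicate 2. The difference in mean share was -5.75 percentage points, and -2.59 without that replicate. In H146 their share was 65.7% ± 3.17 untreated and 72.8% ± 2.10 treated (exact permutation test, *p* = 0.0286). The CIP/KIP genes summed to 416 to 476 TPM in H146 untreated and 301 to 357 TPM treated, without overlap, while the INK4 sums overlapped, at 702 to 958 and 849 to 919 TPM.

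**Figure D4:**
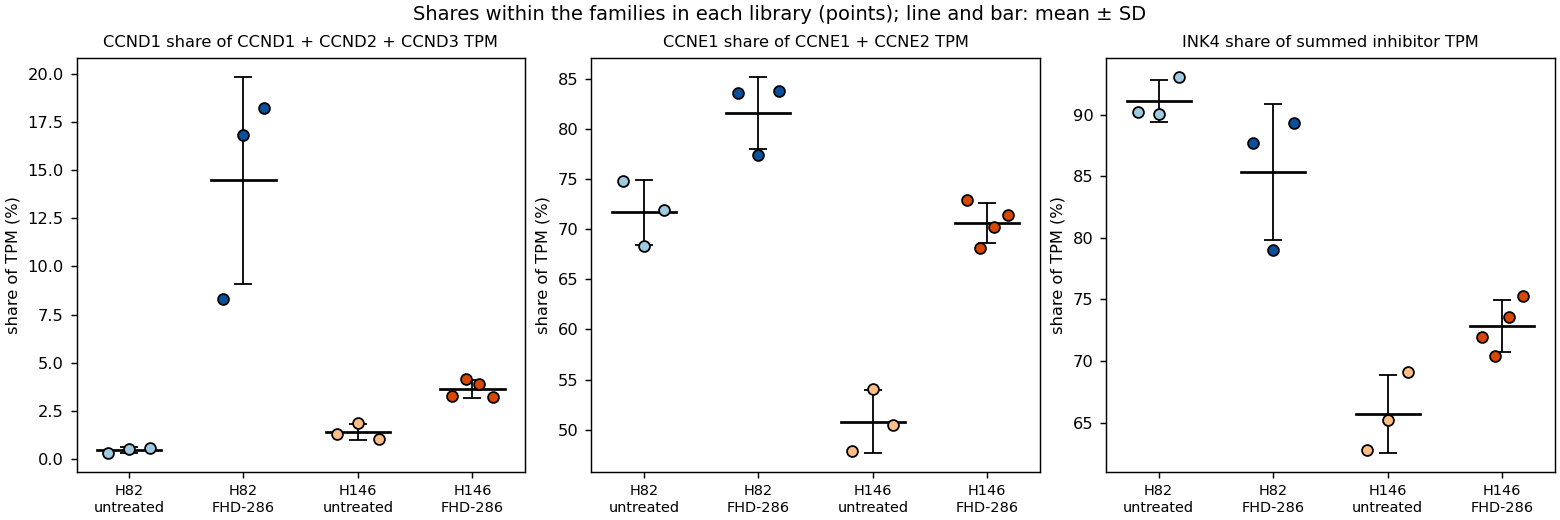
Share of TPM, in percent, of *CCND1* among the D cyclins, of *CCNE1* among the E cyclins and of the INK4 genes among the 6 inhibitors in every library, with the group mean and SD. The *CCNE1* share is higher with FHD-286 in both lines, 81.6% against 71.7% in H82 and 70.7% against 50.8% in H146, while the INK4 share is lower in H82 and higher in H146.

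**Figure D5:**
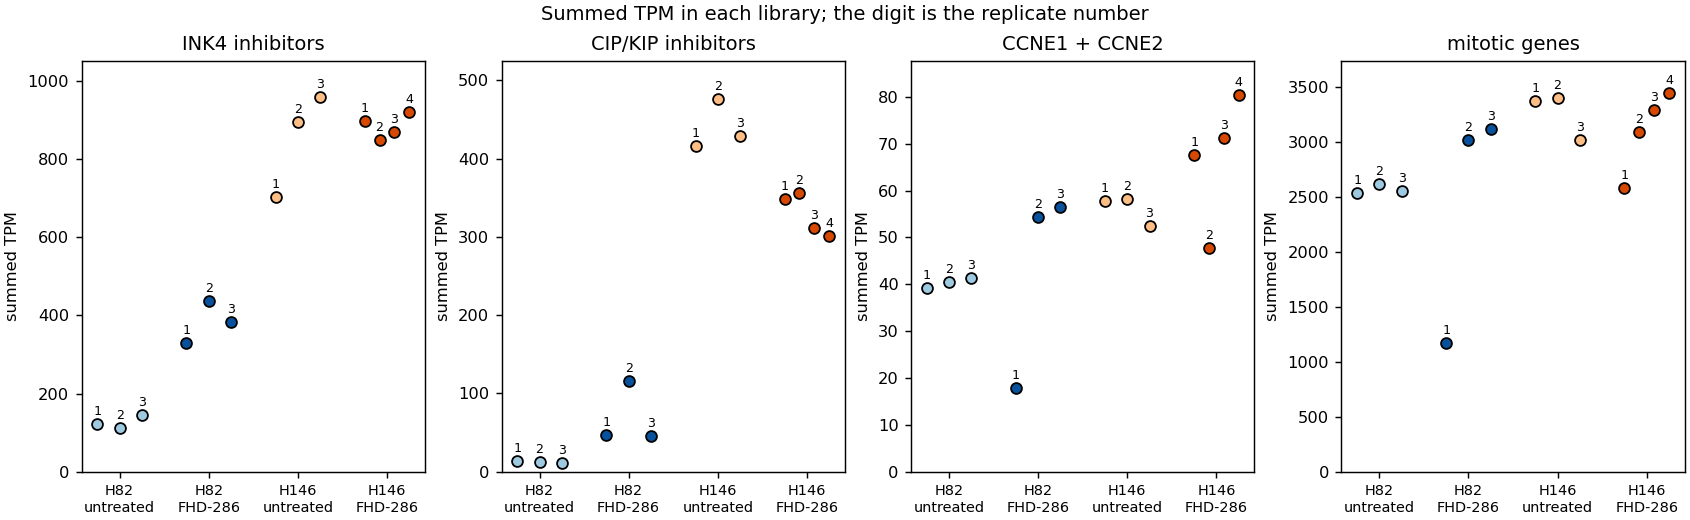
Summed TPM of the 3 INK4 genes, the 3 CIP/KIP genes, both E cyclins and 15 mitotic genes in each library, with the replicate number at each point. The treated H82 replicate 1 is lowest in both the E cyclin sum (17.9 TPM) and the mitotic sum (1168 TPM), and replicate 2 is highest among the treated H82 libraries in the CIP/KIP sum (116 TPM).

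Counts over the pathway lists are set against all genes tested, of which 45.5% were lower and 13.1% higher in H82 and 15.5% lower and 32.5% higher in H146, and nothing particular to a list is read from them. Among the kinases and other G1 genes, 2 of 9 were higher and 0 lower in treated H82, and 4 were higher and 1 lower in treated H146. Their log2 fold changes had a median of 0.12 in H82 and 0.13 in H146. *CDK4*, the kinase that INK4 proteins bind, had 75.0, 63.2 and 81.7 TPM in H82 untreated and 140, 197 and 178 TPM treated, and 72.5, 84.1 and 83.4 TPM in H146 untreated and 166, 123, 276 and 286.5 TPM treated. No treated library overlapped the untreated ones, and the log2 fold change was 1.21 in H82 (adjusted *p* = 0.00141) and 1.32 in H146 (adjusted *p* = 0.00612). *CDK6*, its close relative, averaged 44.9 ± 5.77 TPM before and 29.1 ± 9.58 TPM after treatment of H82 (log2 fold change -0.65, adjusted *p* = 0.0661). It rose in H146 from 5.24 ± 1.08 to 26.3 ± 4.04 TPM (2.13, adjusted *p* = 7.44e-05). *CDK2* rose in H82 from 24.7 ± 2.47 to 38.3 ± 8.89 TPM (0.59, adjusted *p* = 0.0428) and was at 0.13 in H146 (adjusted *p* = 0.331). *CDKN2B*, the INK4 gene next to *CDKN2A*, rose in H146 from 8.64 ± 2.30 to 22.9 ± 3.95 TPM (1.32, adjusted *p* = 0.00109), and *CCNH*, a subunit of the CDK-activating kinase, fell by 0.81 on the log2 scale. *CCND3* did not pass in either line (0.76 in H82 and -0.03 in H146).

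Of 13 RB family and E2F genes, 4 were lower and 0 higher in H82, and 2 were lower and 3 higher in H146. *RB1* fell from 7.78 ± 0.615 to 1.64 ± 0.0541 TPM in H82 (log2 fold change -1.73, adjusted *p* = 0.000369). H146 also had less *RB1* with treatment, 5.18 ± 1.21 against 9.82 ± 1.69 TPM (-0.82, adjusted *p* = 0.00948). *E2F2* was lower in H82 (-0.91). *E2F1* was lower in H146 (-1.11, adjusted *p* = 0.000508), and *E2F3* (1.43) and *E2F7* (0.93) were higher there. Of 14 genes that turn over these proteins, 4 were lower and 2 higher in H82, and 1 was lower and 6 higher in H146. *SKP2*, the ubiquitin ligase subunit that targets p27, had 159, 173 and 163 TPM in H82 untreated and 61.5, 137 and 159 TPM treated, with a log2 fold change of -0.58 (adjusted *p* = 0.185), and rose in H146 from 32.2 ± 3.40 to 56.7 ± 15.1 TPM (0.76, adjusted *p* = 0.0164). In H82 *FBXW7* (-1.06), which targets cyclin E, and its deubiquitinase partner *USP28* (-1.01) were lower, and *FBXO4* (0.86) and *CKS1B* (0.51), a cofactor of SKP2, were higher. In H146 *CUL4A* (1.10) was higher and *FBXO31* (-0.70) lower.

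S phase genes driven by E2F counted 4 of 18 higher and 0 lower in H82, among them *TYMS* (0.98) and *TK1* (0.70). Higher genes numbered 14 without the treated replicate 1, 1 without replicate 2 or 3, and 12 with the median of ratios, so the count depends on single libraries. In H146, *GINS2* (1.12) and *MCM5* (0.52) were higher and *CDT1* (-1.65) and *TK1* (-0.86) lower, and no other gene of the list passed. Of 15 mitotic genes, 3 were lower and 0 higher in H82, among them *MKI67* (-2.23, adjusted *p* = 0.0131) and *CENPE* (-1.62). *MKI67*, a marker of cycling cells, had 133, 123 and 132 TPM untreated and 9.11, 40.2 and 50.8 TPM treated, lowest in replicate 1. Without that replicate the list counted 4 lower and 6 higher, and its median moved from -0.41 to 0.13. In H146, 2 mitotic genes were lower (*CCNB2*, -0.83, and *CDK1*, -0.57) and 1 was higher (*BIRC5*, 0.78). The upstream regulators counted 5 lower and 0 higher of 13 tested in H82, with *SMAD3* (-2.25) and *KLF6* (-1.98) the lowest. In H146 they counted 4 lower, led by *KLF6* (-1.55) and *KLF4* (-1.52), and 4 higher, led by *TCF7L2* (2.05) and *BMI1* (1.69). Over these 6 lists together, 16 genes were lower and 8 higher in H82, which became 8 and 28 with the median of ratios, and 12 were lower and 20 higher in H146, which became 27 and 11. *CDKN1B*, *CDKN2A* and *CDKN2C* held their higher call in H82 under both scalings, as did *CDKN1A* and *CCND1*, which met the filter only through treated libraries.

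The genes whose log2(TPM + 1), less the mean of the line, followed each member most closely were named by Pearson's *r* over the 13 libraries among 15678 genes tested in both lines, as a description. *CDKN1B* was followed by *TMEM106C* (0.989) and *COX7B* (0.986), *CDKN1A* by *AC019188.1* (0.978) and *MAN1A1* (0.976), *CDKN2A* by *GADD45GIP1* and *CYC1* (both 0.984), and *CDKN2C* by *PTK7* (0.961) and *CAPNS1* (0.951). *CDKN2D* was followed by *ID4* (0.919) and *LGALS3BP* (0.912). Among the cyclins, *CCND1* was followed by *IL27RA* (0.988) and *ECI2* (0.986), *CCND2* by *IP6K2* (0.951) and *CTNND1* (0.934), *CCNE1* by *IQCE* (0.980) and *ARHGDIA* (0.978), and *CCNE2* by *CEP55* (0.960), a gene of cytokinesis, and *CHKA* (0.954).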

How the data were processed

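H82 and H146 are human cell lines, and RNA was measured in 13 libraries in 4 groups taken from the labels. The authors trimmed reads with Trim Galore 0.4.4, aligned them with STAR to hg38, counted them per gene with GENCODE release 28 and deposited TPM. How gene length was taken, strand and depth are not given in the sources used here. Coordinates and overlaps of exons come from GENCODE release 44.

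The genes and the gene lists were chosen with earlier results of these data known. Each line was fitted with limma 3.58.1 in R 4.3.3 (eBayes with trend) on log2(TPM + 1). A gene entered the fit when 3 or more libraries held 1 TPM or more. Two-sided *p* values were adjusted by Benjamini and Hochberg's method across every gene in the fit, and calls are at 0.05. Differences between the lines were fitted over all 13 libraries. *CDKN1C* in H82 and the shares were compared with exact permutation tests. A fold change on this scale understates the change of low genes. Genes named from the 6 pathway lists are at most 2 in each direction and line with the largest change past the threshold and no overlap, beside *RB1*, *CDK2*, *CDK4*, *CDK6*, *CCND3* and *SKP2*. The fit was tested on simulated data, whose spread in both groups was taken from the untreated libraries. In the H82 design it called 68% of genes changed by 1 on the log2 scale and 91% of those changed by 2, with 13 false calls. In the H146 design it called 80% and 95.5%, with 7 false calls. Only 100 genes were changed by 1 and 100 by 2 in the H82 design, and 90 and 110 in the H146 design. Far more genes were called in these data, 45.5% lower and 13.1% higher in H82 and 15.5% lower and 32.5% higher in H146. The simulated false calls therefore do not give the number of false calls here. Some genes spread more in treated H82, such as *CCNE1* (SD 17.4 against 1.12 TPM), so the recovery in these data may be lower. Alternatives were a pseudocount of 0.1, no filter, a mean TPM above 2, the median of ratios, quantile normalization, eBayes without trend, the replicate number as a block, an adjusted threshold of 0.1 and each library left out. Python 3.11.15 with pandas 2.3.3 and matplotlib 3.10.9 made the tables and plots. Promoter sequences are from RefSeq. A further gene and its pathway list are not reported here.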

Additional observations from a re-analysis of the deposited data

Results flagged for a closer look

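In the 4 treated H146 libraries, *CDKN1B* in replicate 2 (223 TPM) lay far from the other three (161 to 171 TPM), with a gap of 0.843 of the whole range. Chance gives about 1 such gap in 20 groups, and 10 genes were looked at.

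The treatment effect differed between the lines, in a test of the interaction, for 7 genes. The effect in H82 less that in H146, on the log2 scale, was 3.72 for *CDKN1A*, 2.48 for *CDKN1B*, 1.09 for *CDKN1C*, 1.33 for *CDKN2A*, 2.01 for *CDKN2C*, 2.32 for *CCND1* and -0.85 for *CCND2*. *CCND1* met the filter through its treated libraries and *CDKN1C* only through H146, so these differences of theirs are a description and no test.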

How the results depend on the processing

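*CDKN1B*, *CDKN2A* and *CDKN2C* kept their higher call in H82 in every alternative. *CDKN1A* and *CCND1* kept theirs wherever they were tested, but under the filter they entered only through their treated libraries and had to differ. Leaving out a treated H82 library brings *CDKN1A* and *CCND1* under the filter, so the count of higher genes ranged from 3 to 5 and that of lower genes from 0 to 1 over the libraries left out. With the genes tested kept as in all libraries, an alternative chosen after seeing the data, 6, 5 and 5 genes were higher and 0, 0 and 1 lower without the treated replicates 1, 2 and 3. The counts in H146 were less stable. There the lower genes numbered 3 without a filter, 2 with the replicate block and 2 to 5 over the libraries left out, and the higher genes 1 with the median of ratios, 1 with the block and 1 to 3 over the libraries left out. Same-numbered libraries did not deviate together (correlations from -0.111 to 0.027), so the replicate numbers pair no libraries and the block is reported only here. With the block, *CDKN1B* (-0.55), *CDKN1C* (-0.89) and *CCND1* (0.82) kept their calls in H146, and H82 kept 5 higher and 0 lower. No block could be fitted between the untreated lines, where the number is nested in the line. The 1 gene whose change was lower in H82 than in H146, *CCND2*, became 0 under median-of-ratios scaling, under quantile normalization, without a filter and for several libraries left out (0 to 1).

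Signs turned for genes without a call. In H82, *CCND2* was at 0.15 with the median of ratios and *CCNE2* at 0.0048 with quantile normalization. Over the libraries left out, *CDKN2D* ranged from -0.024 to 0.57, *CCNE1* from -0.19 to 0.61 (-0.11 without the treated replicate 2) and *CDKN1C* from -0.13 to 0.42. Between the changes of the lines, *CCNE1* was at 0.21 with the median of ratios, and *CCNE2* at 0.63 and 0.70 under those 2 scalings and -0.47 to 0.41 over the libraries left out. Between the untreated lines *CCNE1* was at -0.23 with the median of ratios and from -0.028 to 0.092 over the libraries left out.

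The shares in H146 differed by 2.28, 20.3 and 7.55 percentage points for *CCND1*, *CCNE1* and the INK4 genes with medians in place of means, with exact *p* of 0.114, 0.0571 and 0.0571. Over the libraries left out the differences were 2.05 to 2.45, 18.4 to 21.5 and 5.67 to 8.81 points, and none of those designs can reach 0.05 (smallest *p* 0.0667 or 0.1).

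Over the 6 pathway lists, recomputed under settings added after seeing the data, lower and higher genes in H82 numbered 8 and 28 with the median of ratios, and the higher genes 16 with quantile normalization and 5 without a filter. Without a library, 10 to 20 were lower and 1 to 33 higher, and with the genes tested kept, 33, 3 and 4 were higher without the treated replicates 1, 2 and 3. In H146 lower and higher genes numbered 27 and 11 with the median of ratios, and 12 were higher with the block. Without a library, 11 to 27 were higher. Depth is unknown from TPM, so low levels such as *CDKN1A* in untreated H82 have no counting limit.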

Other observations

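Among the MYC family, listed as upstream regulators, *MYCN* was highest by far in the treated H82 replicate 2, while *MYC* and *MYCL* did not set that library apart. *MYCN* had 2.95, 3.59 and 3.15 TPM in untreated H82 and 1.97, 61.8 and 1.27 TPM in treated H82, and the groups overlapped (log2 fold change 0.83, adjusted *p* = 0.568). In H146 it fell from 3.79 to 0.81 to 1.27 TPM (-1.25, adjusted *p* = 0.00135). *MYC*, at 1272 to 1467 TPM in untreated H82, had 1491, 2320 and 2662 TPM with treatment (0.59, adjusted *p* = 0.106), and *MYCL* fell in H82 by 0.64 on the log2 scale (adjusted *p* = 0.0399), to 34.6, 20.1 and 22.8 TPM. These 3 genes were chosen after their values were seen.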
